A study of Mus musculus with 4 samples.

Results

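The genes followed here were the 9 genes of the mouse Fos, Jun and Atf3 group of AP-1 transcription factors (Fos, Fosb, Fosl1, Fosl2, Jun, Junb, Jund, Atf3 and Maff), chosen by name out of the 19353 genes with a count, and all 9 were among the 7228 genes abundant enough to be tested. Their RNA was counted in muscle satellite (stem) cells (MuSCs) of the plantaris, a calf muscle. For overload the tendons of the gastrocnemius and soleus were cut, so that the plantaris took over their load, whereas for sham surgery the skin was incised and the tendons were left whole. Cells were taken at day 4, the time at which the study followed proliferating MuSCs, and the study asked how MuSCs respond to overload. All mice were Pax7-CreERT2:Rosa-YFP and had been given tamoxifen, which turns on the yellow fluorescent protein in cells that use the Pax7 promoter, so a sorted cell is a cell that had expressed Pax7 at labelling. Muscle was digested with collagenase, and 100 fluorescent cells were sorted into each tube. There were 2 sham and 2 overloaded libraries (n = 2 in each group throughout). Age, whether the tubes of a group came from separate mice, and whether sham and overloaded muscles came from the same mice were not given for these libraries in the sources used here, so the errors and p-values measure the spread between libraries, which may be technical.

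Sham libraries 1 and 2 held 269683 and 260488 molecules, counted as unique molecular identifiers (UMIs), and overloaded libraries 1 and 2 held 387955 and 483528. A tube therefore gave 2697 and 2605 UMIs per cell in sham muscle and 3880 and 4835 in overloaded muscle. The method, CEL-Seq2, reads the 3′ end of each transcript, so a UMI stands for a molecule and levels of different genes can be set side by side without dividing by length. Pax7, the defining satellite cell factor, had 118 and 107 UMIs in sham and 108 and 137 in overloaded libraries. Of the 15 satellite cell markers 14 were abundant enough to be tested, and these had UMIs in every library, so satellite cell RNA was present in each. Relative to other genes, 8 of the 14 were lower in overloaded libraries, Pax7 among them (log2 fold change -0.84), and 2 were higher.

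AP-1 is a dimer of basic leucine zipper (bZIP) proteins, most often 1 Fos protein with 1 Jun protein, that binds DNA and switches genes on or off. Fos, Fosb, Jun, Junb and Atf3 are immediate early genes, transcribed within minutes of a signal without new protein synthesis, and their transcripts are short-lived. MuSCs are known for raising these transcripts when muscle is taken apart and digested, and AP-1 is also known for its part in leaving quiescence, so freshly sorted MuSCs usually contain them.

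Promoter sequence was available in RefSeq (GRCm38.p6) for 8 of the 9 genes, Fosl1 not among them. The 250 bases before the start site were read for the letters TGACG and TGACNTCA, on both strands, which resemble the sites bound by CREB, ATF and Jun proteins. The letters TGACG lay in a window of 5 of the 8 genes, against 19.8% of the 27025 genes in the table, and TGACNTCA lay in 2 of the 8, against 8.55%. With either, the count was 6 of 8 (Fos, Fosb, Jun, Junb, Atf3 and Maff) against 25.5%. TGACGTCA holds both motifs, so these counts overlap. The RefSeq starts of Jund and Junb lie upstream of the GENCODE gene, and those of Fosb, Fosl2, Atf3 and 2 of the 3 Maff windows lie inside it, so the windows belong to the RefSeq starts. Maff has 3 windows, which gave it more sequence to match. The AP-1 site TGAGTCA was in none of the 8, against 5.16% of genes, and the CArG box bound by serum response factor was in none, against 1.62%. A match describes letters and not a bound site, and no match says only that the letters are not in this window. The windows of the genes with most UMIs in each family (Fos, Jun and Junb) and of Atf3 and Maff are printed 5′ to 3′ on the strand of the gene, with matches to either motif in capitals. They lie at chr12:85473640-85473889 (plus strand) for Fos, chr4:95052223-95052472 (minus) for Jun, chr8:84978749-84978998 (minus) for Junb, chr1:191183334-191183583 (minus) for Atf3 and chr15:79347270-79347519 (plus) for the second Maff window.
Fos: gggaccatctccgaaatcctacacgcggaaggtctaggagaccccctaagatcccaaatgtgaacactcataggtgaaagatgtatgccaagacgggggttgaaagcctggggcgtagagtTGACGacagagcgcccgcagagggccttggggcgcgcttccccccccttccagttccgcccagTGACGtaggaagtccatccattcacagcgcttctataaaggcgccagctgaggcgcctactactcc
Jun: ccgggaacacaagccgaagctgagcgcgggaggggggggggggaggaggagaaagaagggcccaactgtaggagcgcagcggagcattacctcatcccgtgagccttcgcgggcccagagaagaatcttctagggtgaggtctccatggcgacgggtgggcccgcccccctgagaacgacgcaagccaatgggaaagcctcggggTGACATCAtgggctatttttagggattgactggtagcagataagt
Junb: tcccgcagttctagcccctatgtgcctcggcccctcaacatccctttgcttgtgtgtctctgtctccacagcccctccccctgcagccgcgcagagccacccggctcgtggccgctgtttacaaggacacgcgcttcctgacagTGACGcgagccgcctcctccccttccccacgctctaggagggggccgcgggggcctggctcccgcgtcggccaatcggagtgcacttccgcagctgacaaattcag
Atf3: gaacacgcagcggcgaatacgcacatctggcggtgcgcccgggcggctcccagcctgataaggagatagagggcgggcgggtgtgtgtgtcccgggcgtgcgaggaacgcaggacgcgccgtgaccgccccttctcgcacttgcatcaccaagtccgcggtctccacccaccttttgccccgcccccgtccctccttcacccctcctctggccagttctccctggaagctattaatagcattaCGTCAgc
Maff: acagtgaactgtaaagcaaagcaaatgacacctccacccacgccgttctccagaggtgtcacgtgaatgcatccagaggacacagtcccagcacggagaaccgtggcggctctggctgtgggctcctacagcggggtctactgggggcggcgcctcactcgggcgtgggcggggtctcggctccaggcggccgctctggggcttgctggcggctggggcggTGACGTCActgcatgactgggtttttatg
Fos holds TGACG 129 to 125 and 66 to 62 bases before its start, the latter in the part of the promoter known for its cAMP response element, and a TATAAA 33 to 28 bases before it. In Jun the match is TGACATCA, 45 to 38 bases before the start, and in the Maff window it is TGACGTCA, 29 to 22 bases before it. Junb has TGACG 106 to 102 bases before its start, and Atf3 has it on the other strand, 7 to 3 bases before its start.

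All 9 AP-1 genes were lower in overloaded than in sham MuSCs relative to other genes, by 1.45-fold for Jun up to 5.03-fold for Maff. Of all genes tested, 52.1% were called, 26.3% as lower and 25.8% as higher (edgeR quasi-likelihood test, Benjamini-Hochberg adjusted p under 0.1). Fewer AP-1 molecules were also counted in each tube: the 9 genes together had 2427 and 2432 UMIs in sham libraries and 1338 and 1784 in overloaded libraries, or 0.90% and 0.934% of all UMIs against 0.345% and 0.369%. In raw UMIs, both overloaded libraries lay under both sham libraries for 8 of the 9 genes, against 7.9% of all genes tested and 24.3% of the most abundant 10%; in CPM they did so for all 9, against 35.4%. Jun was the exception in raw UMIs, lower relative to other genes but with more UMIs per tube. In bulk tubes, fewer cells expressing a gene and less RNA per cell cannot be told apart.

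The scale matters for each of these statements. Relative levels are given as CPM, the UMIs of a gene over those of all tested genes in its library, scaled by TMM. TMM is a method that takes most genes as unchanged. Taken per tube of 100 cells instead, the median gene moved from a log2 fold change of 0.05 to 1.01, a shift of 0.96, of which 0.28 came with leaving out the TMM factors alone and the rest with the larger UMI totals of the overloaded tubes, and only 4.58% of genes were lower. On that scale 7 of the 9 AP-1 genes were lower, Jun was higher and Fosl1 did not pass the test. UMIs per tube depend on RNA capture and sequencing depth as well as on the RNA in the cells, and these cannot be told apart here. Fold changes also depended on abundance: among the most abundant 10% of genes (723 genes, with 8 of the 9 AP-1 genes, all but Fosl1), 70.8% were lower and the median log2 fold change was -0.74. With offsets that remove this dependence, 8 of the 9 AP-1 genes were lower and Jun was higher, against 23.4% of all genes lower.

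**Figure D1:**
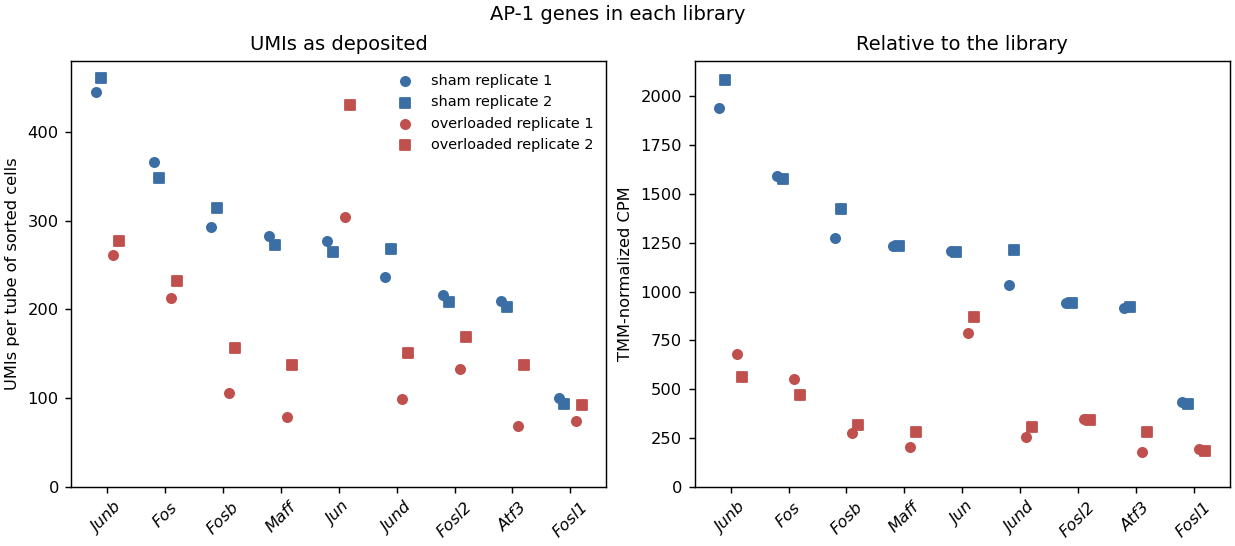
UMIs per tube of 100 cells (left) and TMM-scaled CPM (right) of the 9 AP-1 genes, both on linear axes, in 2 sham (blue) and 2 overloaded (red) libraries, with circles for replicate 1 and squares for replicate 2. In CPM both overloaded libraries lie under both sham libraries for all 9 genes, whereas in UMIs Jun lies the other way round.

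Fos, the founding partner of Jun, had 366 and 348 UMIs in sham and 213 and 232 in overloaded libraries. Its level was 1593 and 1576 CPM in sham and 553.8 and 469.8 CPM in overloaded libraries, so the groups did not overlap on either scale. The level fell from 1585 ± 11.8 to 512 ± 59.4 CPM (SD), 3.11-fold, with a log2 fold change of -1.63 (95% interval -1.97 to -1.30, adjusted p = 8.5e-07 by edgeR). Per tube the log2 fold change was -0.68 (edgeR adjusted p = 7.9e-04), and with offsets for abundance it was -0.60.

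Fosb, a Fos family protein that also exists as a stable shorter form, fell further. It had 293 and 314 UMIs in sham and 106 and 157 in overloaded libraries, or 1275 and 1422 CPM against 275.6 and 317.9 CPM. Both overloaded libraries lay under both sham libraries. The log2 fold change was -2.18 ± 0.17 (SE), a 4.52-fold fall (edgeR adjusted p = 1.2e-07), and it was -1.21 per tube, where it also passed.

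Fosl1 and Fosl2 encode the Fos-related antigens, which lack the strong activation region of Fos. Fosl2 had 216 and 208 UMIs in sham and 133 and 169 in overloaded libraries, or 940.2 and 942.2 CPM against 345.8 and 342.2 CPM, without overlap. It fell 2.73-fold (log2 fold change -1.45 ± 0.16 SE, edgeR adjusted p = 2.1e-06), and per tube by -0.49 (adjusted p = 0.024). Fosl1, the least abundant of the 9, had 100 and 94 UMIs in sham and 74 and 92 in overloaded libraries, or 435.3 and 425.8 CPM against 192.4 and 186.3 CPM. The overloaded UMI counts were under both sham counts, the nearest by 2 UMIs. Its relative level fell 2.27-fold (log2 fold change -1.19 ± 0.17 SE, edgeR adjusted p = 4.2e-05), whereas per tube the log2 fold change was -0.22 with an interval of -0.71 to 0.26 (edgeR adjusted p = 0.41).

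Among the Jun family, Jun stood apart. Jun, the activating partner whose own promoter AP-1 can bind, had 277 and 265 UMIs in sham and 304 and 430 in overloaded libraries. Both overloaded tubes thus gave more Jun UMIs than both sham tubes, as was so for 72.7% of all genes tested. Relative to other genes, however, the level of Jun was 1206 and 1200 CPM in sham and 790.4 and 870.8 CPM in overloaded libraries. The relative log2 fold change was -0.53 ± 0.15 (SE), a 1.45-fold fall (edgeR adjusted p = 0.0099), but it was 0.44 per tube (95% interval 0.10 to 0.77, edgeR adjusted p = 0.026), a 1.35-fold rise that was smaller than the median gene's 1.01 on the log2 scale, and 0.52 with offsets for abundance (adjusted p = 0.0049).

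Junb, which activates more weakly than Jun and can restrain it, was the most abundant AP-1 gene in sham MuSCs. It had 445 and 460 UMIs in sham and 261 and 277 in overloaded libraries, or 1937 and 2084 CPM against 678.6 and 560.9 CPM. The groups were far apart beside the spread within them. The fall was 3.25-fold (log2 fold change -1.70 ± 0.16 SE, edgeR adjusted p = 6.7e-07), and -0.75 on the log2 scale per tube. Jund, the Jun family member most often present in resting cells, had 237 and 268 UMIs in sham and 99 and 151 in overloaded libraries. It fell from 1123 ± 129 to 282 ± 34.2 CPM (SD), 3.96-fold (log2 fold change -1.99 ± 0.17 SE, edgeR adjusted p = 3.0e-07), and by -1.01 on the log2 scale per tube, without overlap on either scale. Thus the Jun-family genes were all lower relative to other genes, but per tube Junb and Jund were lower and Jun was higher.

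**Figure D2:**
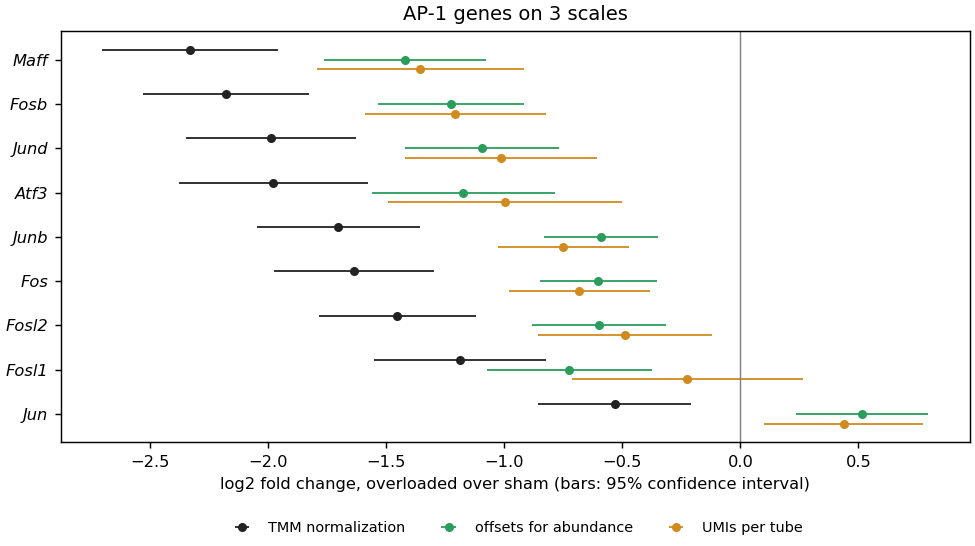
Log2 fold change (overloaded over sham) of the 9 AP-1 genes with 95% intervals, on TMM scaling, with offsets for abundance and per tube of 100 cells. All 9 points lie under 0 on TMM scaling, and Jun crosses to 0.44 per tube and 0.52 with offsets.

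Atf3, a stress-induced bZIP factor that often represses, and Maff, a small Maf protein without an activation domain, are both stress-responsive. Atf3 had 210 and 203 UMIs in sham and 69 and 138 in overloaded libraries, or 914.1 and 919.6 CPM against 179.4 and 279.5 CPM. The 2 overloaded libraries differed more from each other than the 2 sham libraries did, but both were far under them. It fell 3.93-fold (log2 fold change -1.98 ± 0.19 SE, edgeR adjusted p = 6.6e-07). Maff had 283 and 272 UMIs in sham and 79 and 138 in overloaded libraries, or 1232 CPM in each sham library and 205.4 and 279.5 CPM in the overloaded libraries. This was the largest relative fall of the 9, 5.03-fold (log2 fold change -2.33 ± 0.18 SE, edgeR adjusted p = 1.2e-07), and 1.08% of tested genes fell further. The share of genes with a larger fall was 1.43% for Fosb and 27.5% for Jun, which again was the closest to the other genes.

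Within each library, the 9 genes' make-up changed. Jun was 11.4% and 10.9% of the AP-1 UMIs in sham and 22.7% and 24.1% in overloaded libraries, with 95% exact binomial intervals of 10.2 to 12.7% and 9.69 to 12.2% against 20.5 to 25.1% and 22.1 to 26.2%; these intervals cover counting error only. Jun's share was thus larger in both overloaded libraries, and a share does not depend on how libraries are scaled. The Jun to Fos ratio of UMIs was 0.757 and 0.761 in sham and 1.43 and 1.85 in overloaded libraries, and the Jun to Junb ratio was 0.622 and 0.576 against 1.16 and 1.55. In contrast, the Junb to Fos ratio was 1.22 and 1.32 in sham and 1.23 and 1.19 in overloaded libraries. Shares of Fosl1 (4.12% and 3.87% against 5.53% and 5.16%) and Fosl2 (8.90% and 8.55% against 9.94% and 9.47%) were also larger in both overloaded libraries, and those of Fosb, Jund, Atf3 and Maff were smaller in both. The counting intervals of Fosl1, Fosl2, Jund and Atf3 overlapped between groups, unlike those of Jun, Fosb and Maff. With 2 libraries a group, an exact two-sided permutation test cannot give a p under 0.33, so these shares were not tested.

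**Figure D3:**
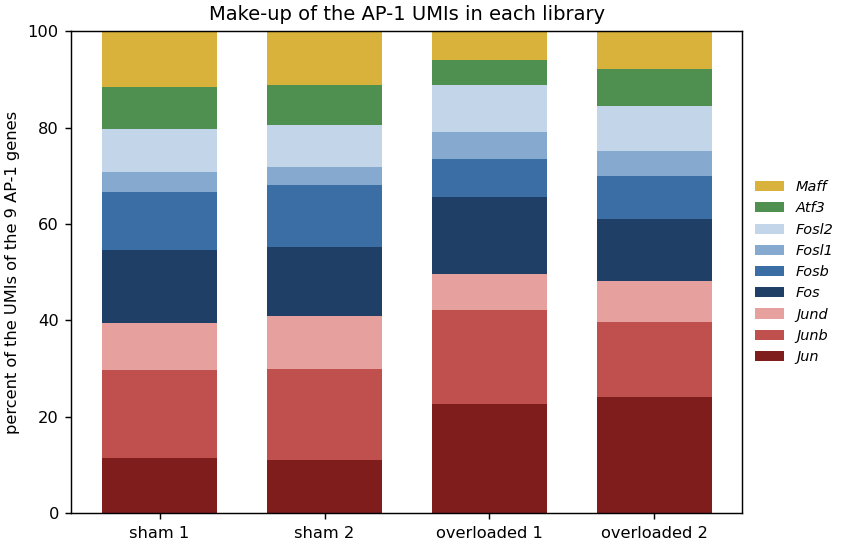
Percent of the AP-1 UMIs of each library held by each of the 9 genes, for 2 sham and 2 overloaded libraries. Jun's block is 11.4% and 10.9% in sham and 22.7% and 24.1% in overloaded libraries.

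The order of the genes by mean CPM changed with it. In sham MuSCs Junb came first, then Fos, Fosb, Maff, Jun, Jund, Fosl2, Atf3 and Fosl1, and only Jun and Jund had overlapping ranges. In overloaded MuSCs Jun came first, followed by Junb, Fos, Fosl2, Fosb, Jund, Maff, Atf3 and Fosl1, where neighbours from Fosb to Fosl1 had overlapping ranges and could not be ranked.

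**Figure D4:**
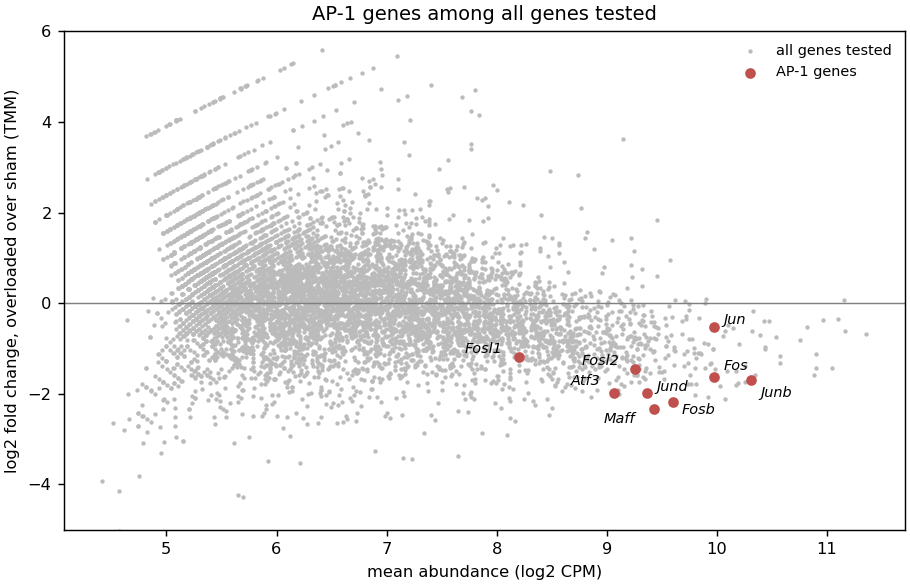
Mean abundance (log2 CPM) against log2 fold change (overloaded over sham, TMM scaling) for the 7228 tested genes, with the 9 AP-1 genes marked and 53 genes outside the plot. Of the most abundant 10% of genes 70.8% are lower, and every AP-1 gene but Jun (-0.53, higher per tube and with offsets) lies under the median of those genes, -0.74.

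Genes with levels most like 3 of the AP-1 genes over the 4 libraries were sought among 1921 genes. These had a mean of at least 50 UMIs over the libraries. Closest to Fos were Slc43a3, Flnc and Nfkbia, the NF-kappaB inhibitor, which differed from it by a root mean square of 0.0237, 0.0296 and 0.0325 log2 units. Closest to Jun were Pnisr, Hnrnpm and Lamc1 (0.0254, 0.0327 and 0.0338), and to Atf3 Dusp8, Birc3 and Ell2 (0.0731, 0.0814 and 0.0992). Slc43a3, a purine nucleobase carrier gene, had 273 and 255 UMIs in sham and 153 and 166 in overloaded libraries, so like Fos it was lower in both overloaded tubes. Pnisr, a nuclear splicing-related protein gene, had 79 and 77 UMIs in sham and 91 and 125 in overloaded libraries, so like Jun it had more UMIs per tube in both overloaded libraries and a negative relative log2 fold change (-0.50). Dusp8, a MAP kinase phosphatase gene, had 89 and 76 UMIs in sham and 26 and 56 in overloaded libraries, with the lowest count in overloaded library 1, as for Atf3. These are descriptions over 4 libraries.

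Genes around AP-1 were described from 5 lists of known members. Of 28 other bZIP genes 24 were tested, and 17 were lower and 1 was higher, against 26.3% and 25.8% of all genes (median log2 fold change -0.85, against 0.05 for all genes, and -0.60 with offsets for abundance). Among the most abundant, Cebpb, which drives inflammatory and differentiation genes, had 308 and 326 UMIs in sham and 174 and 185 in overloaded libraries (log2 fold change -1.77, edgeR adjusted p = 5.3e-07). Atf4, the integrated stress response factor, had 309 and 261 against 197 and 244 UMIs (-1.33), and Cebpd fell by 1.64 on the log2 scale. The largest falls of the list were those of Mafk, a small Maf gene like Maff, with 10 and 11 against 3 and 4 UMIs (-2.49 ± 0.49 SE), and of Crem, a cAMP-responsive factor, with 57 and 59 against 24 and 30 (-2.06). Xbp1, the unfolded protein response factor, was lower as well (-1.12), so falls were found in several bZIP families. Maf was the gene that rose, with 4 and 6 UMIs in sham and 29 and 61 in overloaded libraries (log2 fold change 2.17). Maf passed the abundance filter only through the overloaded libraries, and Mafk only through the sham libraries, so their calls decide nothing. Per tube the list had 6 lower and 6 higher, against 4.58% and 62% of all genes.

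Upstream are MAP kinases and serum response factors that switch the AP-1 genes on. Of 18 tested (23 in the file), 4 were lower, 4 higher and 10 did not pass (median 0.07), near the shares of all genes (26.3% lower and 25.8% higher). Map2k3, a p38 kinase activator, was lower, with 144 and 159 UMIs in sham and 101 and 145 in overloaded libraries (log2 fold change -1.27), and so were Rps6ka3 (-1.04), Map3k5 (-0.94) and Elk4 (-0.73), although Elk4 was 0.23 per tube. Map3k5 had 22 and 18 against 26 and 14 UMIs, so that its log2 fold change was 0 per tube, and it was -0.35 without overloaded replicate 2, -1.61 without overloaded replicate 1 and -0.85 without sham replicate 1, passing in the second of these alone. Mapk9, which encodes a Jun N-terminal kinase, was higher, with 10 and 8 UMIs in sham and 29 and 44 in overloaded libraries (1.05, edgeR adjusted p = 0.028). Elk3 (1.06), Map3k7 (0.69) and Map2k1 (0.53) were higher too. None of these 4 passed without sham replicate 2 or without overloaded replicate 2 (Mapk9 0.88 and 0.95). Elk3, with 8 and 2 UMIs in sham libraries, was 0.38 without sham replicate 2, 2.29 without sham replicate 1 and 0.70 with offsets for abundance (edgeR adjusted p = 0.28). Map3k5 would not have passed the abundance filter on its overloaded libraries alone, nor Elk3 on its sham libraries alone, so their calls decide nothing. Map2k2 had 52 and 40 against 77 and 89 UMIs, a log2 fold change of -0.11 that did not pass and that was 0.85 per tube. Per tube none of the list was lower and 13 were higher, beside 62% of all genes.

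Genes that shorten the life of AP-1 proteins or transcripts, or remove phosphate from the kinases, had 5 lower and 2 higher of 14 tested (median -0.43), against 26.3% lower and 25.8% higher of all genes. Zfp36, which binds AU-rich transcripts for decay, had 257 and 241 UMIs in sham and 151 and 185 in overloaded libraries (log2 fold change -1.53, edgeR adjusted p = 1.2e-06). Zfp36l1 (-1.32, but -0.28 and not past the test with offsets) and the MAP kinase phosphatase Dusp1 (-1.32) were lower too, as were Ncor1 (-0.50) and Cop1 (-0.50), both of which were 0.47 per tube, with Ncor1 also 0.026 with offsets. Cop1 did not pass once any 1 of the libraries was left out (-0.60 to -0.37), nor Ncor1 without sham replicate 2 (-0.47). Cops5, a subunit of the COP9 signalosome first known as a Jun activation-domain binder, rose, from 8 and 11 to 44 and 80 UMIs (1.72), and Dusp6, a MAP kinase phosphatase gene, from 32 and 37 to 85 and 104 (0.49, passing without overloaded replicate 2 but not without any other library, 0.33 to 0.59). Cops5 would not have passed the abundance filter on its sham libraries alone, so its call decides nothing. Per tube, 2 were lower and 5 higher, against 4.58% and 62% of all genes.

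Of 15 textbook AP-1 target genes tested, 7 were lower, 5 higher and 3 did not pass (median -0.59), against 26.3% and 25.8% of all genes. With offsets for abundance 5 were lower and 6 higher, and the median was -0.13. Lif, a secreted cytokine, had 18 and 22 UMIs in sham and 10 and 8 in overloaded libraries (log2 fold change -2.09). Vegfa (-1.66), Plaur (-1.63) and Hbegf (-1.34) were also lower. The most abundant of the lower targets was Hmox1, the heme oxygenase gene, with 202 and 215 against 193 and 205 UMIs (-1.02, but -0.067 per tube and -0.13 with offsets, where it did not pass). Plau (-0.76) was lower relative to other genes but 0.19 per tube and -0.22 with offsets, where it did not pass, and Cd44, a matrix receptor gene, had 140 and 118 against 233 and 296 UMIs (0.07, not past the test, but higher per tube, 1.04, and with offsets, 0.91). Spp1, which encodes the secreted osteopontin, had no UMI in either sham library and 179 and 165 in overloaded libraries, at least 58.8-fold higher when sham is set at the floor of 3 counts over the group. Spp1 and Bcl2l1, both among the 5 higher, passed the abundance filter only through the overloaded libraries, so their calls decide nothing. The call of Lif, among the 7 lower, decides nothing either, because Lif passed the filter only through the sham libraries. S100a4 rose from 20 and 18 to 172 and 176 UMIs (2.24), Bcl2l1 from 5 and 3 to 40 and 55 (2.58) and Timp1, a metalloprotease inhibitor gene, from 15 and 8 to 63 and 80 (1.67). Per tube, 2 were lower and 6 higher, against the same 4.58% and 62%.

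The other immediate early genes, with heat shock genes and other genes known to come up during muscle dissociation, fell with AP-1. Of 39 genes, 35 were lower, 1 was higher and 3 did not pass (median -1.32, and -0.60 with offsets for abundance, where 25 were lower). Of all genes 26.3% were lower, of the most abundant 10% of genes 70.8%, and with offsets 23.4% of all genes. Nr4a3, an orphan nuclear receptor, had 164 and 138 UMIs in sham and 37 and 69 in overloaded libraries (log2 fold change -2.48). Nr4a2 (-2.30), Gadd45b (-1.85) and Nr4a1 (-1.82) followed. The heat shock gene Hspa1b, the most abundant of the list, had 610 and 588 against 495 and 581 UMIs (-1.11, but 0.15 with offsets for abundance), although it shares nearly identical sequence with Hspa1a, so their counts are uncertain. Hspa1a (-1.38) and the chaperone genes Hspa5 (-1.31, but -0.13 and not past the test with offsets) and Hsp90ab1 (-0.97, but 0.17 with offsets) were also lower relative to other genes. Klf10 was the gene that rose, from 24 and 23 to 57 and 81 UMIs (0.59), but it passed without overloaded replicate 1 and not without any other library (0.54 to 0.55). The list held 2.82% and 2.87% of UMIs in sham and 1.47% and 1.38% in overloaded libraries, and its part in the AP-1 result was not tested. Per tube, 18 were lower and 8 higher, against 4.58% and 62% of all genes. The Fos to Hspa1b ratio was 0.600 and 0.592 in sham and 0.430 and 0.399 in overloaded libraries, and the Egr1 to Fos ratio 1.12 and 1.24 against 1.10 and 1.08.

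**Figure D5:**
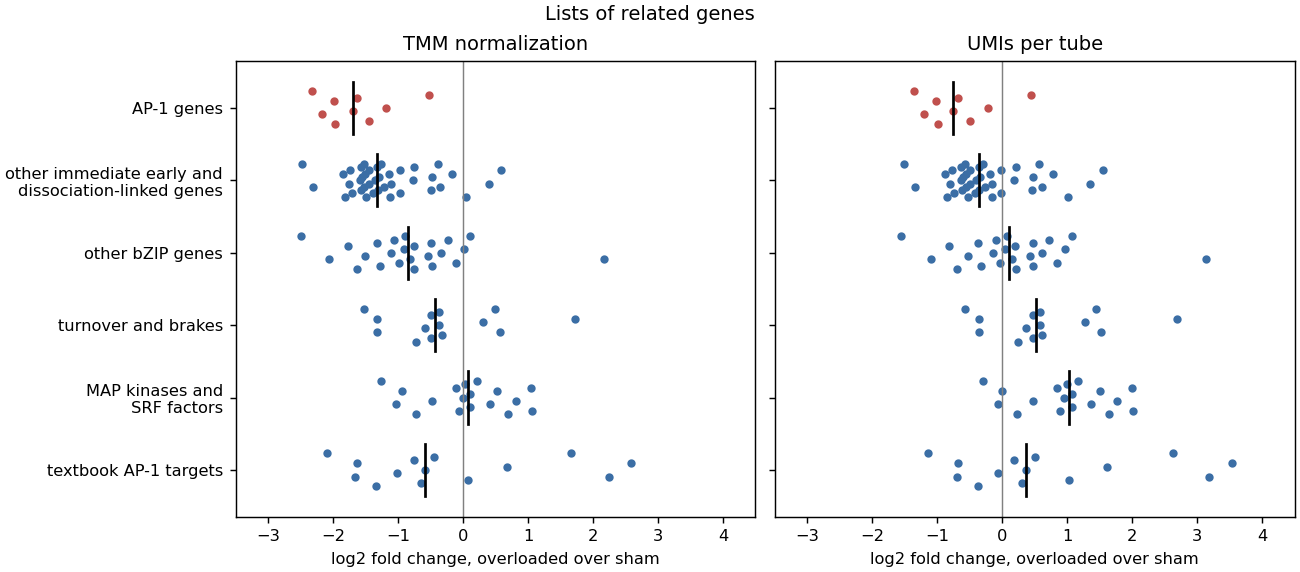
Log2 fold change (overloaded over sham) of the genes in each list, with TMM scaling and per tube of 100 cells; the black bar is the median, and Spp1 lies outside the plot. With TMM scaling the immediate early list lies lowest after the AP-1 genes (medians -1.32 and -1.70), and per tube their medians are -0.36 and -0.75.

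Markers of cells other than MuSCs also differed between groups. Beside the counts of called markers below, 26.3% of all genes tested were lower and 25.8% higher. The 14 leukocyte markers had 3 and 6 UMIs in sham libraries and 84 and 204 in overloaded libraries, with Lyz2, the most abundant, at 0 and 0 against 17 and 38, and Ptprc, which defines leukocytes, at 0 and 1 against 1 and 4. Of these 14 genes 2, Lyz2 and Cd74, were abundant enough to be tested. Both had no UMI in sham and passed the abundance filter only through the overloaded libraries, so their higher calls decide nothing. In sham libraries 10 of the 14, including Cd74 and Csf1r, had no UMI. The 9 myofiber markers had 420 and 227 UMIs in sham and 1285 and 1540 in overloaded libraries, led by Acta1. All 7 tested were higher, against 25.8% of all genes, while Myh1 and Myh2 were at 0 in sham. Of the 7, Myh4 would not have passed the abundance filter on its sham libraries alone, so its call decides nothing. Mural cell markers had 181 and 161 against 478 and 694 UMIs, led by Acta2, with Myh11 at 0 in all but overloaded library 2. Of 4 tested, 2 were higher and 1 lower. Rgs5, among the higher, would not have passed the abundance filter on its sham libraries alone, so its call decides nothing. Endothelial markers had 30 and 20 against 54 and 73 UMIs, led by Tek in sham libraries (10 and 12 against 5 and 11). Cdh5 was at 3 and 1 against 14 and 11, and Cldn5 and Egfl7 were at 0 in sham libraries. Of 2 tested, 1, Tek, was lower. Tek passed the abundance filter only through the sham libraries, so its call decides nothing. Fibroblast markers had 887 and 812 against 903 and 1107, led by Gsn in sham libraries (304 and 269 against 214 and 312) and by Col1a1 in overloaded libraries (206 and 181 against 364 and 377). Pdgfra was at 0 and 0 against 2 and 0. Ly6a, which encodes Sca-1, had 1 and 0 UMIs in sham and 22 and 41 in overloaded libraries. It passed the abundance filter only through the overloaded libraries, so its call decides nothing. Of 6 fibroblast markers tested, 4 were lower and 1, Ly6a, was higher. Per tube 2 were lower and 3 higher, against 4.58% and 62% of all genes. With offsets 2 were lower and 2 higher, against 23.4% and 23.9%. The part of these markers in the AP-1 result was not tested. Mitochondrial genes made up 1.90% and 1.84% of UMIs in sham and 1.67% and 1.49% in overloaded libraries. The 15 satellite cell markers had 1894 and 1614 UMIs in sham and 2296 and 2613 in overloaded libraries. They were led by Sdc4 in sham libraries (422 and 284 against 375 and 345) and by Myf5 in overloaded libraries. Of 14 tested, 8 were lower and 2 higher, against 26.3% and 25.8% of all genes. Per tube 3 were lower and 6 higher, against 4.58% and 62% of all genes. With offsets for abundance 3 were lower and 6 higher, against 23.4% and 23.9%. Among the satellite cell markers, Calcr had 37 and 57 UMIs in sham and 15 and 15 in overloaded libraries. Chodl had 196 and 188 against 114 and 105, and Myf5 244 and 168 against 388 and 467.

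The 9 genes lie on 8 chromosomes (GRCm38). Of the Fos family, Fos lies at chr12:85473890-85477273 (4 exons), Fosb at chr7:19302696-19310051, Fosl1 at chr19:5447547-5455946 and Fosl2 at chr5:32135801-32157842. Jun (chr4:95049034-95052222), Junb (chr8:84974484-84978718) and Jund (chr8:70698949-70700616) have a single exon in their longest transcript. Atf3 (chr1:191170296-191218039) and Maff (chr15:79346621-79359076) have 4 and 3 exons in theirs. Genes on the other strand overlap Fosl1, Jun, Junb, Jund and Atf3, and whether counting used strand was not given in the sources used here. Ccdc85b, which overlaps Fosl1, had 1 UMI in each sham library and 0 and 1 in overloaded libraries, and Junos, which overlaps Jun, had 4 and 1 in sham and 3 and 2 in overloaded libraries, so both were scarce beside the AP-1 genes. Prdx2, which overlaps Junb, had 21 and 18 UMIs in sham and 70 and 73 in overloaded libraries, the opposite direction to Junb. The genes that overlap Jund and Atf3 were not among the genes with a count, so their levels could not be looked at.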

How the data were processed

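The authors deposited a table of UMI counts, whole numbers per gene and library: per the labels and the study's methods, CEL-Seq2 reads of tubes of 100 sorted cells had their UMIs extracted with UMI-tools 1.0.0, were mapped to GRCm38 with HISAT2 2.1.0, assigned with featureCounts 1.6.4 and deduplicated, and the authors tested with DESeq2 1.22.2. UMIs have 6 bases, so 4096 are possible, and highly counted genes can lose molecules to repeats. The 4 libraries held 260488 to 483528 UMIs. The floor used, 3 UMIs, is 6.08 to 13.6 CPM. Genes were kept by filterByExpr (7228 of 19353) and tested with edgeR 4.0.16 (TMM, quasi-likelihood, no covariate) in R 4.3.3 at a Benjamini-Hochberg adjusted p of 0.1; the common biological coefficient of variation was 9.50%. At that rule 3766 genes were called, 1868 higher and 1898 lower (52.1% of those tested). At an unadjusted p under 0.05 there were 3732 genes. Replicate libraries differed by more than sampling noise (chi-square per degree of freedom 1.31 for sham, 1.50 for overloaded, 6.34 to 7.86 between groups).

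Genes and lists were chosen with earlier results of these data known. Named from each list were the 4 genes with most UMIs and up to 4 in each direction with the largest change past the threshold; some of these genes are not reported here. Alternatives were DESeq2 size factors, library sizes alone, UMIs per tube, loess offsets for abundance, DESeq2 1.42.0, limma-voom (limma 3.58.1), no filter, a 10-count filter, an adjusted p of 0.05, a replicate block, thinning to 260488 UMIs, correction for repeated UMIs and leaving out each library. Promoter sequence came from RefSeq (GRCm38.p6) and gene positions from GENCODE. The code was tested on simulated data.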

Additional observations from a re-analysis of the deposited data

How the results depend on the processing

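The AP-1 genes kept their direction and passed the test in 140 of 144 combinations of gene and alternative. The exceptions were Fosl1 per tube (log2 fold change -0.22, edgeR adjusted p = 0.41) and Jun, which with library sizes alone was -0.25 (adjusted p = 0.15), per tube 0.44 and with offsets 0.52; the count of higher AP-1 genes was 1 per tube and 1 with offsets, against 0. Leaving out each library, Jun ranged from -0.58 to -0.44 (largest edgeR adjusted p 0.089) and Atf3 from -2.31 to -1.69. Called genes numbered 2182 with DESeq2 (967 higher, 1215 lower), against 3766, and 49.6% of calls were higher, against 66.6% with library sizes alone, 93.1% per tube, 50.5% with offsets and 57.6% without a filter. With library sizes alone the median of all genes shifted by 0.28. Per tube, other bZIP genes had 6 lower and 6 higher, MAP kinases 0 lower and 13 higher, brakes 2 lower and 5 higher, targets 2 lower, and immediate early genes 18 lower and 8 higher. Higher MAP kinases numbered 2 with the 10-count filter, 0 with DESeq2, 2 at an adjusted p of 0.05, and 0 to 3 leaving out a library. Lower brakes numbered 3 with library sizes alone, without a filter and with DESeq2; higher brakes 4 with library sizes alone, 1 with the 10-count filter, 1 with DESeq2 and 1 at an adjusted p of 0.05, and 1 to 2 leaving out a library. Higher immediate early genes numbered 2 with library sizes alone, 4 with offsets, 0 with DESeq2 and at an adjusted p of 0.05, and 0 to 1 leaving out a library.

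Named genes changed sign as follows, and the cause was not tested. Map2k2 was 0.17 with library sizes alone, 0.85 per tube and 0.082 with offsets, and ranged from -0.30 to 0.030 leaving out a library; Cd44 ranged from -0.056 to 0.14. Per tube Elk4 was 0.23, Ncor1 0.47, Cop1 0.47 and Plau 0.19; with offsets Ncor1 was 0.026, Hspa1b 0.15 and Hsp90ab1 0.17. Without a change of sign, Xbp1, Map2k3, Rps6ka3, Dusp1, Hmox1, Plaur, Hbegf, Hspa1b and Hsp90ab1 no longer passed per tube, nor Cop1, Zfp36l1, Hmox1, Plau, Hspa5 and Elk3 with offsets.

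With the replicate number as a replicate block, 3670 genes were called (1806 higher, 1864 lower), and no AP-1 call changed (Fos -1.64, Jun -0.53). Same-numbered libraries did not deviate together (r = -0.035 over 7228 genes). This does not settle whether they came from the same mice, which was not given in the sources used here. Thinned to the smallest library, all 9 AP-1 genes stayed lower and past the threshold.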
